A study of Mus musculus with 6 samples.

Results

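The 39 genes described here mark neural progenitors, radial glia and astrocytes, and were chosen by their symbol out of the 55335 genes of the deposited table. The rule names the symbols and sets no limit on a measured value, but the list was drawn up with earlier results of these data known. Each of the 39 symbols was found in 1 row. They were followed in 6 RNA-seq libraries of primary GABAergic interneuron cultures, made from wild-type C57BL/6 mouse embryos at day 14.5, all of which had been exposed for 12 hours to an adeno-associated virus (AAV). The virus of 3 samples expressed a hairpin directed at Brpf1 (AAV-shbrpf1), and that of the other 3 a scrambled control (AAV-scramble). Brpf1 holds histone acetyltransferase complexes together, and the study asks about its role in interneurons of the medial ganglionic eminence. Each group has libraries numbered 1 to 3. The labels leave unsaid what a number stands for and whether the samples of a group are separate cultures or animals. The p-values between viruses therefore cover the spread among these 6 samples, which may be technical. Those between numbers are measured against how far the 2 libraries of a number differ once the virus is taken into account. If a number stands for a single culture, those p-values do not tell how far separate cultures would differ. The labels call the cells GABAergic interneurons in the titles and neural progenitors in the source field, and no step that removes dividing or glial cells is described in them.

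Radial glia are the stem cells that line the ventricles of the embryonic brain, and in the ganglionic eminences they give rise to interneurons. Later, cells of the same lineage become astrocytes, which clear glutamate and potassium, carry lipids and are coupled by gap junctions. Many genes are shared by both stages, so that a marker such as Fabp7 or Slc1a3 does not tell them apart. Cultures of embryonic brain keep some of these cells. In bulk RNA the level of such a transcript depends on how many cells of any type hold it and how much each holds. These cannot be told apart, so a level is not a measure of the amount of glia.

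Levels are given in FPKM, fragments per kilobase of transcript, scaled to the mapped fragments of the library, which allows for transcript length. Comparisons of genes of unlike GC content are limited, because levels moved with GC content between numbers, as described further on. Depth, estimated from the steps between low values, ran from 13.1 M to 21.1 M fragments a library. Brpf1, the target of the hairpin, stood at 3.29 and 3.13, 5.45 and 4.58, and 4.84 and 3.78 FPKM in the AAV-scramble and AAV-shbrpf1 libraries numbered 1, 2 and 3. Its means were 4.53 ± 1.11 FPKM with AAV-scramble and 3.83 ± 0.723 FPKM with AAV-shbrpf1 (SD, n = 3), and the difference of -0.18 ± 0.26 (SE) on the log2(FPKM + 1) scale did not pass (limma adjusted p = 1). It was lower with AAV-shbrpf1 in 3 of 3 pairs, an agreement that was not counted over all genes. Of the implied fragments, 5.33% and 8.33% came from ribosomal RNA loci for number 2, against 1.5% to 2.64% elsewhere. The mitochondrial share also followed the numbers. With AAV-scramble given first, it was 5.60% and 6.09% for number 1, 1.80% and 1.34% for number 2, and 4.03% and 3.71% for number 3.

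The glial genes were well expressed, and their levels differed between replicate numbers far more than between viruses. The same held for genes at large. Of the 12792 genes tested, 69.4% differed between numbers and 0% between viruses (limma, adjusted p under 0.05). Throughout, pairs of values give the AAV-scramble library first and the AAV-shbrpf1 library of the same number second. Summed over the 39 genes the level was 1916 and 2035 FPKM for number 1, 1944 and 1875 for number 2, and 3535 and 3104 for number 3. The libraries numbered 3 thus lay above all others, and within a number the viruses were close. Over 12 neuronal genes taken for comparison (Tubb3, Map2, Stmn2 and others) the summed level lay between 1385 and 1578 FPKM in the 6 libraries. Yet all 12 differed between numbers in limma's F test, in both directions, beside 69.4% of all genes. Tubb3 was at 329 and 396, 642 and 669.9, and 618 and 518 FPKM in numbers 1, 2 and 3, and Gap43, opposite in direction, at 473 and 522, 381 and 353, and 334 and 313 FPKM. Of the 39 genes, 35 reached 1 FPKM on average with either virus and were tested. Pax6, Hopx, Tnc and Gjb6 were under that minimum in both groups.

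**Figure D1:**
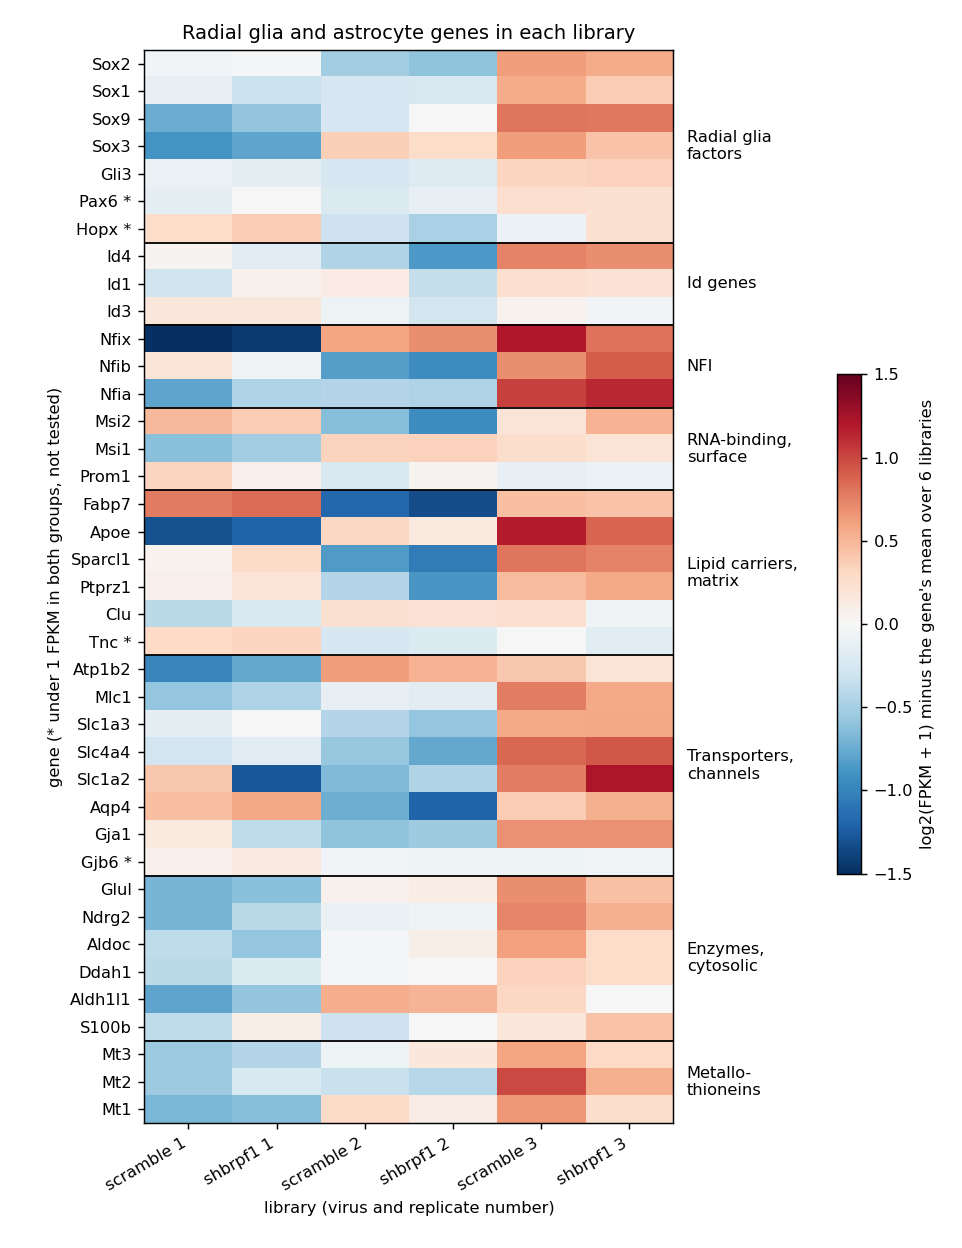
Each row is a gene, grouped by role, and each column a library; colour gives log2(FPKM + 1) minus the mean of that gene over the 6 libraries. In 25 of the 35 genes tested both libraries numbered 3 lie above the other 4, and neighbouring columns of the same number look alike.

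Among transcription factors of neural progenitors, the SoxB1 genes Sox1, Sox2 and Sox3 keep progenitors undifferentiated, and Sox9 acts in the switch to making glia. Sox2 stood at 36.1 and 36.7 FPKM for number 1, 25.7 and 24.1 for number 2, and 58.2 and 55.4 for number 3. Sox1 measured 22.6 and 19.6, 20.7 and 20.8, and 37.1 and 32.7 FPKM in numbers 1, 2 and 3. Both were highest in the libraries numbered 3, whichever virus they carried. Sox9 measured 6.39 and 7.21, 9.35 and 11.3, and 20.6 and 20.3 FPKM, and Sox3 was at 3.23 and 3.57, 9.14 and 8.54, and 11.2 and 9.67 FPKM. The fitted difference of Sox9 between numbers 3 and 1 was 1.46 ± 0.11 (SE, limma adjusted p = 0.00671) on the log2(FPKM + 1) scale, with the virus as a term in the model. For Sox1, Sox2 and Sox3 that difference was 0.70, 0.63 and 1.38, each past the threshold.

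Factors known best from the dorsal forebrain were low. Pax6, a regulator of cortical radial glia, lay between 0.355 and 0.878 FPKM, and Gli3, a zinc finger factor of Hedgehog signaling that shapes the dorsal telencephalon, between 0.775 and 1.69 FPKM. Hopx, a marker of outer radial glia, was listed at 0 in AAV-shbrpf1 library 2 and reached 0.815 FPKM in AAV-shbrpf1 library 1, which is an estimated 19.8 fragments. It was not tested.

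The Id genes encode inhibitors of proneural factors and answer to BMP signals. Id4 was the most abundant of the 3, at 13.3 and 11.4 FPKM for number 1, 9.14 and 6.59 for number 2, and 22.1 and 21.4 for number 3. Id1 measured 1.5 and 2.23, 2.37 and 1.41, and 2.69 and 2.57 FPKM in that order, and Id3 2.15 and 2.15, 1.66 and 1.32, and 1.90 and 1.71 FPKM. Both were low in each library. Id4 was higher in number 3 than in number 1 by 0.78 ± 0.12 (SE, limma adjusted p = 0.0119). Neither Id1 nor Id3 differed between numbers past the threshold (adjusted p = 0.305 and 0.159 in limma's F test), with counting error alone up to 21.6% and 21.3% of a value.

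The nuclear factor I genes start astrocyte differentiation, and Nfix had the largest ratio between numbers 3 and 1 of the 35 genes, at 6.84. Nfix, on chromosome 8 from 84699876 to 84800344 (minus strand, GRCm38), stood at 8.85 and 12.4 FPKM for number 1, 53.9 and 58.0 for number 2, and 82.6 and 62.9 for number 3. Nfia measured 2.14 and 2.94, 2.99 and 2.93, and 10.01 and 10.9 FPKM in the same order, so that it was low in numbers 1 and 2 alike. Nfib, at 9.58 and 7.85, 4.18 and 3.78, and 13.9 and 16.3 FPKM, was lowest in number 2. In number 3, 15.3% of all genes were called higher than in number 1. All 3 nuclear factor I genes were, by 2.67 ± 0.20 (SE, limma adjusted p = 0.00671) for Nfix, 1.70 for Nfia and 0.73 for Nfib. Between numbers 2 and 1 they parted: Nfix was higher in number 2 by 2.31, Nfib was lower (-0.96), and Nfia, at 0.17, did not pass. This parting was not kept by the correction for transcript length and GC content described further on, which gave 1.82 for Nfix, -0.15 for Nfib, no longer called (limma adjusted p = 0.290), and 1.04 for Nfia, then called higher. Exons of Nfix share 137 bases with those of G430095P16Rik on the opposite strand, and whether the counting kept the strands apart is not stated.

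Msi1 and Msi2 encode Musashi RNA-binding proteins of neural stem cells, and Prom1 the membrane protein CD133. Msi2 measured 30.7 and 28.4, 13.5 and 10.7, and 24.7 and 31.2 FPKM in numbers 1, 2 and 3, and Msi1 6.67 and 7.23, 13.9 and 14.1, and 13.3 and 12.7 FPKM. Between numbers 2 and 1 the difference was -1.23 for Msi2 and 0.92 for Msi1, both past the threshold. With the length and GC correction these were -0.29, no longer called (limma adjusted p = 0.0548), and 0.39. Prom1 stayed near the filter, at 1.48 and 1.09, 0.680 and 1.05, and 0.829 and 0.874 FPKM, and did not differ between numbers past the threshold (adjusted p = 0.300, limma F test).

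Secreted and cytosolic carriers of lipids included the most abundant glial transcripts. Fabp7, the brain fatty acid binding protein of radial glia, on chromosome 10 from 57784881 to 57788450 (plus strand), stood at 729.6 and 758 FPKM for number 1, 187 and 169 for number 2, and 581 and 569.9 for number 3. Apoe, the apolipoprotein that astrocytes secrete, on chromosome 7 from 19696109 to 19699188 (minus strand), measured 112 and 120.2 FPKM for number 1, 343 and 309 for number 2, and 628 and 509 for number 3. The order of the numbers was therefore not the same for these genes. Fabp7 was lowest in number 2, with a difference of -2.06 ± 0.13 (SE, limma adjusted p = 0.00104) from number 1, while Apoe was lowest in number 1 and higher in number 3 by 2.27 ± 0.14 (SE, limma adjusted p = 0.00671), a ratio of 4.90 between the means of the FPKM values. For Fabp7 the difference between numbers 3 and 1 was -0.37 ± 0.13 (SE, limma adjusted p = 0.0737).

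Sparcl1, which encodes the matrix protein hevin, followed Fabp7 in being lowest in number 2, at 79.5 and 93.8, 42.0 and 36.4, and 135 and 129 FPKM in numbers 1, 2 and 3. Ptprz1, a receptor phosphatase of radial glia, did so too, at 55.8 and 60.4, 38.8 and 28.4, and 73.7 and 79.0 FPKM. Clu, the chaperone clusterin, ran from 22.9 to 36.6 FPKM and was higher in number 2 than in number 1 by 0.53 ± 0.14 (SE, limma adjusted p = 0.0174), a call lost with the length and GC correction (0.24, limma adjusted p = 0.135). Tnc, the matrix glycoprotein tenascin C, did not exceed 1.37 FPKM and was not tested.

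**Figure D2:**
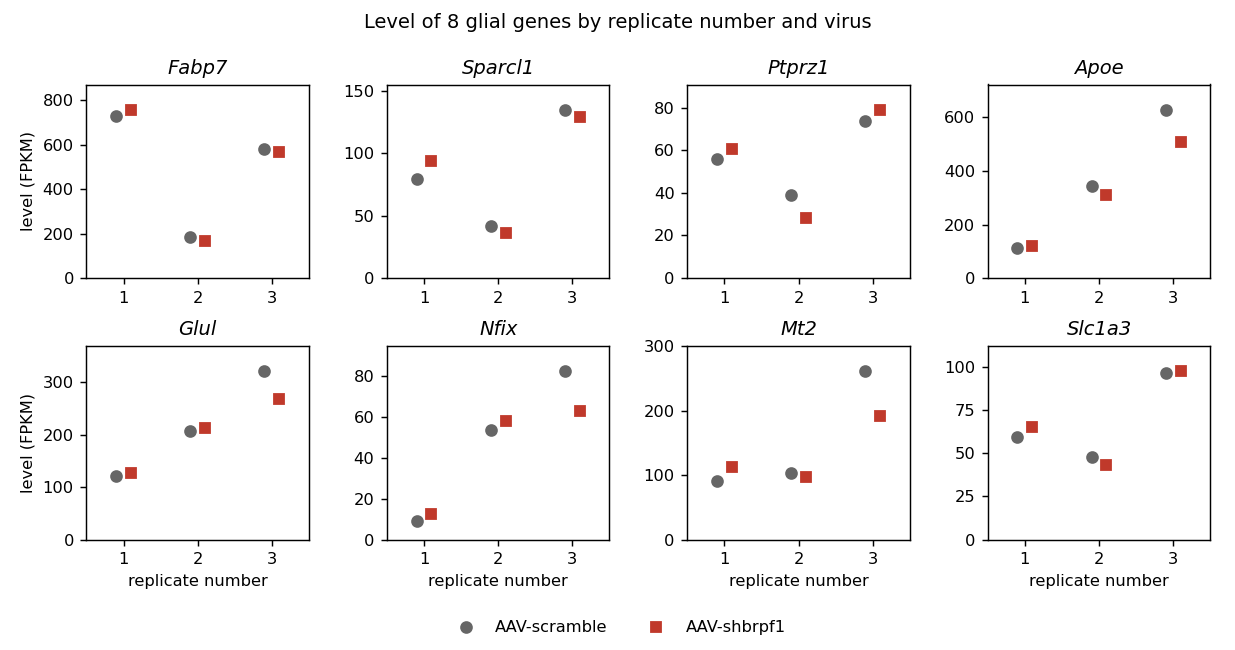
Level in FPKM of 8 glial genes on the vertical axis (linear, from 0) against the replicate number, with circles for AAV-scramble and squares for AAV-shbrpf1; each point is 1 library. Fabp7, Sparcl1 and Ptprz1 are lowest in number 2, Apoe, Glul and Nfix are lowest in number 1, and Mt2 and Slc1a3 are highest in number 3.

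Transporters, channels and junction proteins carry out much of what astrocytes do for neurons. Slc1a3, the glutamate transporter GLAST, stood at 59.2 and 64.9 FPKM for number 1, 47.7 and 43.2 for number 2, and 96.4 and 97.4 for number 3. Atp1b2, the glial beta subunit of the sodium-potassium pump, measured 42.1 and 49.2, 131 and 122, and 112 and 97.6 FPKM in the same order, and Mlc1, a membrane protein of astrocyte endfeet, 48.4 and 52.5, 66.6 and 64.3, and 124 and 108 FPKM. Slc1a3 and Mlc1 were highest in number 3, whereas Atp1b2 was highest in number 2. The Atp1b2 difference between numbers 3 and 2, at -0.27, did not pass (limma adjusted p = 0.138). Slc4a4, a sodium bicarbonate cotransporter, lay at 15.9 and 17.3, 12.9 and 11.1, and 36.4 and 38.2 FPKM. Of the 7 genes of this group that were tested, 5 were higher in number 3 than in number 1, beside 15.3% of all genes. The differences were 1.12 for Slc4a4, 1.18 for Atp1b2, 1.18 for Mlc1, 0.80 for Gja1 and 0.64 for Slc1a3.

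Genes of mature astrocytes were uneven. The water channel gene Aqp4 was present at 4.01 to 16.2 FPKM and lowest in number 2. Gja1, encoding connexin 43, lay between 5.39 and 14.5 FPKM. Gjb6, encoding connexin 30, which appears late in astrocytes, was listed at 0 in AAV-scramble library 3 and AAV-shbrpf1 library 2 and did not exceed 0.153 FPKM, an estimated 6.20 fragments. Slc1a2, the glutamate transporter GLT-1, follows with the comparison of the viruses.

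Of the 6 enzymes and cytosolic proteins of astrocytes, 5 were higher in number 3 than in number 1, beside 15.3% of all genes. S100b did not pass. Glul, glutamine synthetase, which turns glutamate taken up from synapses into glutamine, stood at 121 and 128 FPKM for number 1, 206 and 212 for number 2, and 321 and 268 for number 3. Ndrg2, a cytosolic protein of astrocytes, was at 59.4 and 72.6, 90.1 and 92.4, and 161 and 140.4 FPKM in that order, and Aldoc, the brain form of aldolase, at 62.1 and 53.9, 80.0 and 86.0, and 124 and 97.9 FPKM. In these 3 genes both libraries numbered 1 were the lowest and both libraries numbered 3 the highest. Ddah1, which breaks down asymmetric dimethylarginine, varied less, at 60.5 and 69.5, 78.8 and 80.3, and 102 and 97.5 FPKM. Aldh1l1, a folate enzyme much used as an astrocyte marker, was highest in number 2 instead, between 23.2 and 60.1 FPKM. Its difference between numbers 3 and 2, at -0.37, did not pass (limma adjusted p = 0.0775). Between numbers 3 and 1 the difference was 1.23 ± 0.13 (SE, limma adjusted p = 0.00676) for Glul, and 1.18, 0.92, 0.85 and 0.61 for Ndrg2, Aldoc, Aldh1l1 and Ddah1, all past the threshold. Exon bases shared with a gene on the opposite strand number 499 for Aldh1l1 (with Gm15756) and 116 for Glul (with Teddm2).

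Metallothioneins are small cysteine-rich proteins that bind zinc and copper, and astrocytes are a main source of them in brain. Mt3, Mt2 and Mt1 lie side by side on the plus strand of chromosome 8 (GRCm38), from 94152607 to 94154146, from 94172664 to 94173568 and from 94179082 to 94180327. Mt1 and Mt2 are induced by metals, through metal response elements bound by the factor MTF-1, and also by glucocorticoids. Mt3 is mainly a brain gene. Their promoters are shown because these neighbours were all higher in number 3 than in number 1 (RefSeq, GRCm38.p6, 250 bases before to 50 after the start, plus strand, 5′ to 3′). Capitals mark each match on either strand to the core of the metal response element, spelled TGCACNC or TGCGCNC, and no matches overlap.

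Mt1, at chr8:94178839-94179138: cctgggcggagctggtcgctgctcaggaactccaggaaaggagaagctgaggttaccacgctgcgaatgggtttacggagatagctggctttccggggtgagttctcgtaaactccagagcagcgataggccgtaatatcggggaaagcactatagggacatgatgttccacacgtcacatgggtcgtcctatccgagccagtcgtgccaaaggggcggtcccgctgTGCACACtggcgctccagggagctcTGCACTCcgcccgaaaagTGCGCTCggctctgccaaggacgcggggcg
Mt2, at chr8:94172368-94172667: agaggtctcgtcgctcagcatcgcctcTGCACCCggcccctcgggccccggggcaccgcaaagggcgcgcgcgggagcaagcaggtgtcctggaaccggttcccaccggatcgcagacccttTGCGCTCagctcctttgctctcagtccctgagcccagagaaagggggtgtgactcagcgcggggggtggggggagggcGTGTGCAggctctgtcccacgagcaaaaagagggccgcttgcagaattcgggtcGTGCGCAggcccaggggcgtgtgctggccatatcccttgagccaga
Mt3, at chr8:94152357-94152656: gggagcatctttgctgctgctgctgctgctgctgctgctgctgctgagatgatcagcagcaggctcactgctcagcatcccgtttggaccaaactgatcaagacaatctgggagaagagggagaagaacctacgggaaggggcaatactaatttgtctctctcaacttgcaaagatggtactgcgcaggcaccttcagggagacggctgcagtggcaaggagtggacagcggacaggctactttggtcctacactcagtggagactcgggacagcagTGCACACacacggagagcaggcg

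There were 3 matches in the Mt1 window, 4 in that of Mt2 and 1 in that of Mt3. Counted from the RefSeq start as base 1, the matches of Mt1 began at -23, 3 and 21. Those of Mt2 began at -223, -128, -50 and 5, and that of Mt3 at 28. For Mt1 and Mt2 the RefSeq start differs from the annotated gene start given above. Of 32851 promoters of this length in the RefSeq table, 25.7% held at least 1 match, 1.97% at least 3 and 0.517% at least 4. Among 45 promoters of 30 of the glial genes, 16 held a match. A match is only a run of letters, and nothing in these data shows what is bound there.

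Mt3 measured 97.4 and 105 FPKM for number 1, 137 and 160.3 for number 2, and 217 and 176 for number 3. Mt2 stood at 90.1 and 112, 104 and 97.7, and 261 and 191 FPKM in the same order, and Mt1 at 47.3 and 48.8, 93.1 and 82.9, and 121 and 91.5 FPKM. The Mt2 values of numbers 1 and 2 overlapped, whereas Mt1 and Mt3 were lowest in number 1. In number 3, 15.3% of all genes were called higher than in number 1. So were all 3 metallothioneins, by 1.14 ± 0.19 (SE, limma adjusted p = 0.0128) for Mt2, 1.11 for Mt1 and 0.94 for Mt3. The longest identical run between the annotated transcripts of any 2 of them was 20 bases. Of Mt2, 432 exon bases are shared with Gm45774 on the opposite strand.

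The whole set was then compared between numbers. A limma F test over all genes, with the virus in the model, called 31 of the 35 tested glial genes (88.6%), beside 69.4% of the 12792 genes tested. Against number 1, number 3 had 24 of the glial genes higher and 0 lower, beside 15.3% and 15.8% of all genes. Their median difference was 0.80, and that of all genes -0.01. Against number 2, number 3 had 21 higher and 0 lower, beside 34.3% and 12.9%, with medians of 0.72 and 0.25. Number 2 against number 1 was mixed, with 14 higher and 10 lower, beside 22.9% and 42.4% of all genes. These 3 comparisons share libraries and are given side by side. Both libraries numbered 3 lay above the other 4 in 25 of the 35 genes, beside 16.3% of all genes. Both libraries numbered 1 lay below the other 4 in 15 and both numbered 2 in 13, beside 23.5% and 43.7%.

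**Figure D3:**
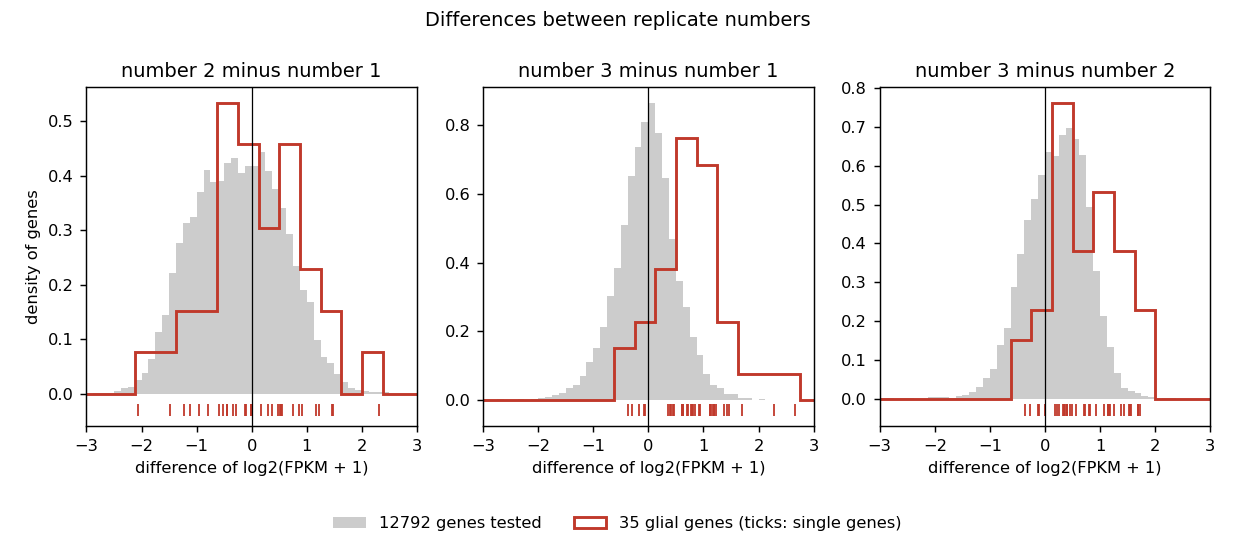
Fitted differences of log2(FPKM + 1) between replicate numbers, as the density of all 12792 genes tested (grey) and of the 35 glial genes tested (red outline, with a tick per gene). The glial genes lie to the right of the grey distribution for number 3 minus number 1, with a median of 0.80 against -0.01.

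The count of 24 rests on the libraries numbered 1. With either of them left out, AAV-scramble or AAV-shbrpf1, that number kept a single library and 0 glial genes and 0 of all genes passed between numbers 3 and 1, while the median difference of the glial genes was 0.77 and 0.79. Leaving out library 3 of AAV-scramble gave 13 glial genes higher, beside 2.94% of all genes. Dropping the filter on low values gave 14, beside 1.99%. The F test called 19 of 34 glial genes when both libraries numbered 1 were left out, beside 31.8% of all genes. Scaling the libraries by median ratios moved the median of all genes between numbers 2 and 1 from -0.25 to -0.01, and between 3 and 2 from 0.25 to 0.03. The split of glial genes was then 16 higher and 6 lower between numbers 2 and 1, 17 higher and 3 lower between 3 and 2, and still 24 and 0 between 3 and 1, beside 32.5% and 32.8%, 18.3% and 22.4%, and 14.99% and 14.7% of all genes. Among all genes called, the share that was higher went from 35.1% to 49.8% between numbers 2 and 1 and from 72.7% to 44.9% between 3 and 2. Without AAV-scramble library 1, 8 glial genes were called higher in number 2 than in number 1, beside 12.4% of all genes.

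Base composition moved with these differences. Across the 12785 tested genes with an annotated transcript, the difference between numbers 2 and 1 had a Pearson correlation of 0.74 (Spearman 0.77) with the GC content of the longest transcript. Over the 35 glial genes it was 0.71 (Spearman 0.77). Between numbers 3 and 1 it was weaker, at 0.46 and 0.39, and between numbers 3 and 2 it had the opposite sign, at -0.62 and -0.64. These are correlations across genes of the same libraries, and genes are not independent replicates. The 17 glial genes whose mean was lowest in number 1, Apoe, Glul and Nfix among them, had a median GC content of 53.0%, and the 17 lowest in number 2, such as Fabp7, Aqp4 and Sparcl1, one of 45.7%. In a fit chosen after seeing the data, the trend of each library with transcript length and GC was removed first. Between numbers 3 and 1 it called 26 glial genes higher and 0 lower, beside 14.3% and 12.9% of all genes, and all 24 genes called before were among them. Between 3 and 2 it called 19 and 0, beside 11.8% and 12.5% of all genes, where 34.3% and 12.9% had been called before, and 17 of the 21 were kept. Between 2 and 1 it called 15 and 6, beside 20.1% and 19.5% of all genes. There the calls depended on the correction: of 24 genes called before, 15 kept call and sign, 8 were no longer called and 5 others were added. The lost calls were those of Sox3, Nfib, Msi2, Clu, Ptprz1, Slc1a3, Slc4a4 and Mt3, and the added ones those of Sox1, Id3, Nfia, Ddah1 and S100b. Id4 turned from -0.60 to 0.33 and was called both times. Fabp7 was lower in number 2 than in number 1 in either fit, at -1.06 after the correction (limma adjusted p = 0.00416).

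**Figure D4:**
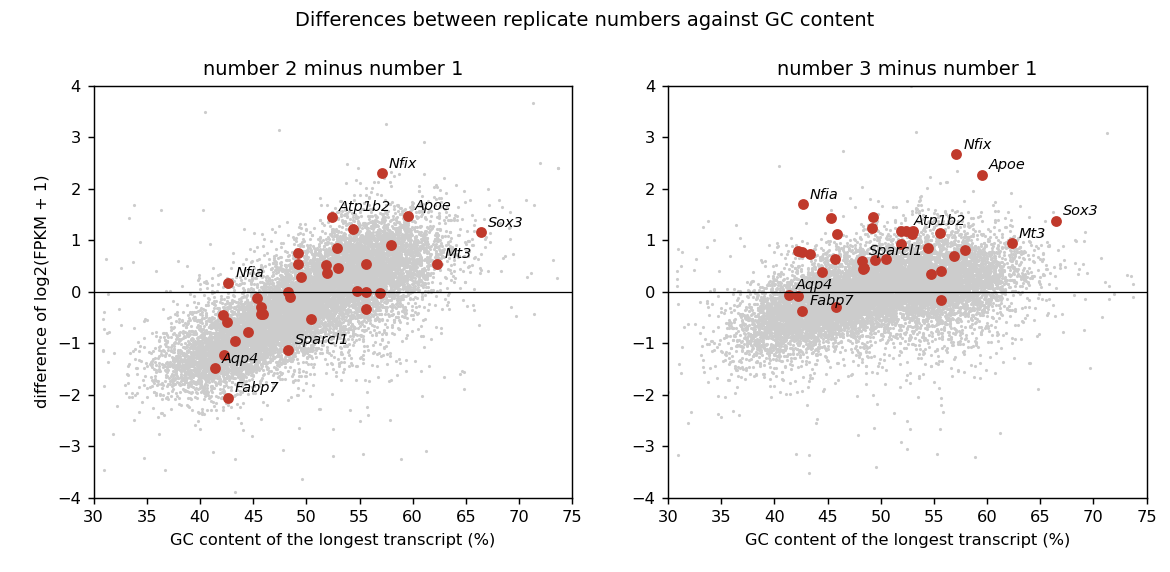
Fitted difference of log2(FPKM + 1) between replicate numbers on the vertical axis against GC content of the longest annotated transcript in percent, for all tested genes (grey) and the glial genes (red). The grey points slope upwards for number 2 minus number 1 (Pearson correlation 0.74), and for number 3 minus number 1 most red points lie above 0.

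Markers of other cells moved between numbers as well. For comparison, 15.3% of all genes were called higher and 15.8% lower in number 3 than in number 1. The 8 GABAergic genes, by which the label of the cultures can be checked, summed to 609 and 637 FPKM for number 1, 833 and 749 for number 2, and 925 and 750.4 for number 3, with 4 of them higher and 2 lower in number 3 than in number 1. Sst, the neuropeptide gene somatostatin, made up much of that sum, at 178 and 232, 468 and 423, and 564 and 394 FPKM, and Gad1, which makes GABA, went the other way, at 177 and 157, 106 and 94.1, and 95.4 and 101 FPKM. The cultures thus held the defining transcripts of GABAergic neurons beside those of glia, and bulk RNA does not tell whether the same cells held both. The 8 oligodendrocyte lineage genes summed to 136 and 154 FPKM for number 1, 245 and 233 for number 2, and 319.5 and 299 for number 3, and 7 of them were higher in number 3 than in number 1. The 8 cycling genes summed to 72.0 and 77.6 FPKM for number 1, 44.0 and 40.3 for number 2, and 75.5 and 69.6 for number 3. Fibroblast collagens and smooth muscle actin were seen in number 1, with Acta2 at 11.5 and 11.6 FPKM there and at or under 0.407 FPKM elsewhere, and Col1a1 at 14.97 and 7.02 FPKM there and at or below 0.223 FPKM in the other 4 libraries. The 7 fibroblast genes summed to 10.2 to 49.2 FPKM, Pdgfra being in both this list and the oligodendrocyte one. Of the 12 neuronal genes, 3 were higher and 5 lower in number 3 than in number 1, with Tubb3 at 0.65 and Snap25 at -1.39. The part of other cells in the glial differences was not tested. Microglial genes summed to at most 0.825 FPKM, with Cx3cr1 listed at 0 in each library, and the 6 glutamatergic genes to at most 1.03 FPKM.

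A list of 26 further glial genes, none of them among the 39, was read in the same fit. In it 23 differed between numbers in the F test, beside 69.4% of all genes. Of the 26, 19 were higher and 1 lower in number 3 than in number 1, beside 15.3% and 15.8% of all genes. The median difference of this list was 0.85. Its most abundant member Cst3, the protease inhibitor cystatin C, stood at 131 and 159 FPKM for number 1, 281 and 382 for number 2, and 806 and 670.0 for number 3. Dbi, which encodes a binding protein of acyl-CoA, measured 168 and 210.4, 139.7 and 136, and 347 and 299 FPKM in that order, the matrix proteoglycan gene Ncan 63.1 and 80.9, 224 and 201, and 216 and 219 FPKM, and the GABA transporter gene Slc6a11 42.5 and 58.6, 106 and 91.5, and 162 and 143 FPKM. The gene that was lower was Gfap, the intermediate filament of astrocytes, which is singled out after its values were seen. Gfap stood at 16.4 and 13.9 FPKM for number 1, 3.65 and 4.23 for number 2, and 3.46 and 3.40 for number 3, so that both libraries numbered 1 were far above the other 4. Its difference between numbers 3 and 1 was -1.86 ± 0.14 (SE, limma adjusted p = 0.00671), opposite in sign to that of Apoe, Glul and the metallothioneins.

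Between the viruses no glial gene passed the threshold. Of the 35 tested, 0 passed at an adjusted p under 0.05 in limma, beside 0% of all genes, and 0 had an unadjusted p under 0.05, as 23 of 12792 genes did. With the replicate number as a block 0 passed as well, beside 0% of all genes, and 1 glial gene had an unadjusted p under 0.05, as 280 of all genes did. The groups did not overlap in 0 of the 35, beside 1.07% of all genes. Differences ran from -0.34 to 0.35 on the log2(FPKM + 1) scale with a median of -0.04, where all genes had a median of -0.02. Within the numbers 1, 2 and 3 the median was 0.11, -0.05 and -0.06, so that its sign was not the same in each.

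Apoe measured 361 ± 259 FPKM with AAV-scramble and 313 ± 194 FPKM with AAV-shbrpf1 (SD, n = 3), and Glul 216 ± 100.3 FPKM with AAV-scramble and 203 ± 70.8 FPKM with AAV-shbrpf1 (SD, n = 3). For Nfix the means were 48.5 ± 37.2 FPKM with AAV-scramble and 44.4 ± 27.8 FPKM with AAV-shbrpf1 (SD, n = 3). In each of these genes the SD within a virus was larger than the difference between the viruses. That SD includes the spread between numbers. On the log2(FPKM + 1) scale the SE of the Nfix difference was 0.91 without the replicate block and 0.16 with it. A gene that misses the threshold is not shown to be equal: the 95% interval of Glul ran from -1.09 to 1.00, and with the block from -0.31 to 0.21.

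**Figure D5:**
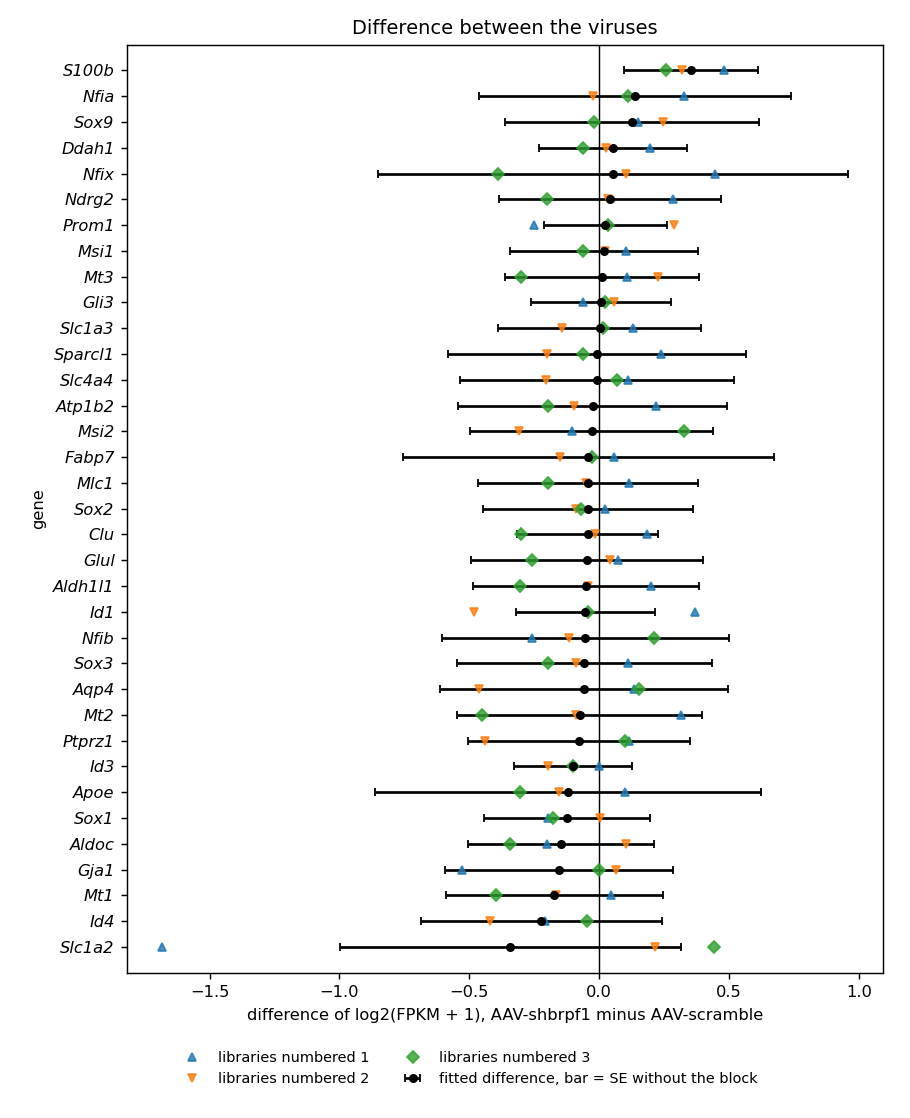
Difference of log2(FPKM + 1), AAV-shbrpf1 minus AAV-scramble, for the 35 glial genes tested, with black points and bars for the fitted difference and its SE without the block (3 libraries a group) and coloured symbols for the difference within each replicate number. S100b is the gene with the largest difference upwards and Slc1a2 downwards, and in Slc1a2 the libraries numbered 1 lie apart from the others.

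The 3 genes with the largest differences were S100b, Slc1a2 and Id4. S100b, a calcium-binding protein of astrocytes, was low, at 1.91 and 3.06 FPKM for number 1, 2.04 and 2.80 for number 2, and 3.25 and 4.09 for number 3, and was higher with AAV-shbrpf1 in 3 of 3 pairs. Its difference was 0.35 ± 0.26 (SE) with a limma adjusted p of 1, and the unadjusted p with the block was 0.0195 (adjusted p = 1). Counting error alone was up to 15.7% of a value of this gene. Slc1a2, the main glutamate transporter of adult astrocytes, stood at 14.5 and 3.83 FPKM for number 1, 6.41 and 7.59 for number 2, and 18.9 and 26.1 for number 3. It was lower with AAV-shbrpf1 in number 1 and higher in numbers 2 and 3, which gave -0.34 ± 0.66 (SE) in all, and without the libraries numbered 1 its difference was 0.33. Id4 was lower with AAV-shbrpf1 in 3 of 3 pairs, at -0.21, -0.42 and -0.05, a fitted difference of -0.22 ± 0.46 (SE) that did not pass (limma adjusted p = 1). S100b and Id4 were picked for the size of their difference. Agreement of sign over 3 pairs was not counted over all genes and is no test. Slc1a2 changed sign without AAV-shbrpf1 library 1 (0.21), and Id4 did so with library 3 of AAV-scramble left out (0.09) or library 2 of AAV-shbrpf1 (0.15). Slc1a2 shares 189 exon bases with Gm13872 on the opposite strand.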

How the data were processed

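The authors deposited 1 table of gene values for the 6 libraries. Its header names no unit, and the deposited values are read as FPKM, since they are not whole and have no fixed total. FastQC, StringTie and DESeq2, and the build mm9, are named without roles in the submitters' processing notes. No source used here states the aligner, filters or strand setting. As 54899 of 55154 gene identifiers have the same start and end in GENCODE M21, coordinates are those of GRCm38. Table columns were matched to samples by group and number.

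The 12792 genes averaging 1 FPKM or more with either virus were tested on log2(FPKM + 1). The test was that of limma 3.58.1, run under R 4.3.3 with a trended variance (two-sided, Benjamini-Hochberg over all genes tested, threshold 0.05), which understates changes of low genes: AAV-shbrpf1 minus AAV-scramble without covariates, and replicate numbers (F test and 3 contrasts, each adjusted over all genes) with the virus as a term. The fits were checked only on values simulated with normal noise, which does not show how well the model suits these data. Same-numbered libraries deviated together from the group means (correlations 0.87, 0.83 and 0.57), so the numbers pair the samples, although no label explains them. Depth was estimated from steps of FPKM times length in 11673 single-exon genes over 400 nt; errors from estimated fragments, at the longest transcript, cover counting only. Of the 39 genes, 12 share exon bases with another gene.

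The 39 symbols, the comparison lists (the 26 further glial genes included) and the tests were chosen with earlier results of these data known, although no rule uses a measured value. Values in each library are given for the 4 most abundant genes of each role and the 3 largest differences between viruses. Genes outside that rule are said to be so or given by range, except genes of other cell types. Those shown, Tubb3, Gap43, Sst, Gad1, Acta2, Col1a1 and Snap25 among them, were not chosen by the rule and serve as examples. Alternatives were another pseudocount (0.1), no filter, median ratio scaling, the replicate block, each library left out, and, added later, each number left out and a length and GC correction.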

Additional observations from a re-analysis of the deposited data

How the results depend on the processing

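Between viruses, 0 glial genes passed in each alternative run, the replicate block included (0 of the 35 with it), and the block changed no call. Of all genes, 0 passed except under the block without the libraries numbered 2 (8 genes) or numbered 3 (1 gene), none of them glial. The median difference of the glial genes, -0.04, ran from -0.29 to 0.18 with a library or number left out. Slc1a2 and Id4, neither past the threshold, changed sign: Slc1a2 ran from -1.03 to 0.33, at 0.21 without AAV-shbrpf1 library 1 and 0.33 without both libraries numbered 1, and Id4 from -0.63 to 0.15, at 0.09 without AAV-scramble library 3 and 0.15 without AAV-shbrpf1 library 2. Between numbers, the 31 glial genes called ran from 19 to 31 and the 8876 of all genes from 3943 to 8885 when a library or number was left out. The split between numbers 2 and 1 (14 higher, 10 lower) ran from 8 to 15 and 7 to 11, was 9 higher and 12 lower without the filter, so that the balance turned, and was 16 and 6 with scaling and 15 and 6 with the length and GC correction. Between 3 and 1 the 24 higher ran from 0 to 28 and were 14 without the filter. Between 3 and 2 the 0 lower were 3 with scaling and ran from 0 to 1. Where a number kept 1 library, it was assumed to vary like the others. Without the filter, 7.63% of all genes were higher and 19.3% lower in number 2 than in number 1. Of all genes called there, the share that was higher fell as well, from 35.1% to 28.4%. The shift towards lower calls was thus not confined to the glial genes. With scaling 32.5% of all genes were higher there and 32.8% lower, and with the length and GC correction 20.1% and 19.5%. Between 3 and 1 without the filter, 1.99% were higher and 1.51% lower. Hopx and Gjb6 are too low at this depth to be compared.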
